A study of Mus musculus with 48 samples.

Results

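The transcripts followed here are those of 10 genes of the blood-brain barrier, read in bulk mouse brain tissue after stroke. They were chosen by name, from 46983 genes in the count tables, and all 10 were found and passed the filter on low counts. They are the junction genes *Cldn5*, *Ocln* and *Tjp1*, the transporter genes *Slc2a1*, *Slco1a4*, *Slco1c1*, *Mfsd2a* and *Abcb1a*, and *Cav1* and *Plvap*, which belong to vesicles and pores of the vessel wall. The tissue came from 3-month-old C57Black/6 male mice. After permanent middle cerebral artery occlusion (MCAO), in which the artery was coagulated and cut under isoflurane, tissue was taken at 3 h, 12 h, 24 h, day 3 or day 7. The sham mice had the same operation without the coagulation, at the same times. The control group was intact cortex. Each group held 4 libraries, apart from MCAO at 3 h, 12 h, day 3 and day 7 with 5 each, which makes 48 libraries in 11 groups. The model leaves small infarcts in the parietal cortex, and the samples held affected and unaffected tissue together. The animals had been perfused, and the labels name no animal, so the p-values measure the spread between these libraries.

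Brain capillaries are lined by endothelial cells that seal the gaps between them and let few vesicles cross. Claudins and occludin form the seal in the membrane, and ZO-1 ties it to the cytoskeleton. Nutrients and hormones enter through dedicated carriers, and pumps return drugs and lipophilic compounds to the blood. Caveolae, which are flask-shaped pits that carry cargo across a cell, are kept rare in the capillaries of the healthy brain. Astrocytes, pericytes and Wnt signals hold this state, and barrier leakage after stroke is a well-known event.

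The sequences shown are the 250 bases before the transcription start of 4 members. *Slco1a4* and *Cldn5* are the members that passed a test, *Slc2a1* is a textbook target of the hypoxia-inducible factor, and *Mfsd2a* held the most motif matches. They came from RefSeq on GRCm38.p6, and windows were held for 9 of the 10 members (11 windows of 300 bases, which add 50 bases after the start). The motifs searched on both strands were the hypoxia response cores ACGTG and GCGTG, the TCF/LEF core CTTTGA of Wnt targets, the ETS core CCGGAA and the AP-1 site TGACTCA, and matches are in capitals. The stretches lie at chr6:141856221-141856470 (minus strand), chr16:18776597-18776846 (plus), chr4:119108495-119108744 (plus) and chr4:122961189-122961438 (minus).
Slco1a4: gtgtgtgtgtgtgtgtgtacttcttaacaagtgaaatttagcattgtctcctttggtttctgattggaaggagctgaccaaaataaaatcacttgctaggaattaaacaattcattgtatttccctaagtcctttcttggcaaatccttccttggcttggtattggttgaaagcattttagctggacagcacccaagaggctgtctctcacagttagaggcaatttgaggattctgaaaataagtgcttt
Cldn5: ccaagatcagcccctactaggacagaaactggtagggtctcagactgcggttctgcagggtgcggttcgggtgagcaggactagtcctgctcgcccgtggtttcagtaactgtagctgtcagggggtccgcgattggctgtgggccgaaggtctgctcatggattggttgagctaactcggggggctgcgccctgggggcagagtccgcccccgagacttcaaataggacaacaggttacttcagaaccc
Slc2a1: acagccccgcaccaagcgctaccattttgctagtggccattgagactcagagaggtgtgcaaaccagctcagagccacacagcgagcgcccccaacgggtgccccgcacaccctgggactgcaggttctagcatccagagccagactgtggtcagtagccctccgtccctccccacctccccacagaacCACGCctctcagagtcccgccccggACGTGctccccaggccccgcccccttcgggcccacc
Mfsd2a: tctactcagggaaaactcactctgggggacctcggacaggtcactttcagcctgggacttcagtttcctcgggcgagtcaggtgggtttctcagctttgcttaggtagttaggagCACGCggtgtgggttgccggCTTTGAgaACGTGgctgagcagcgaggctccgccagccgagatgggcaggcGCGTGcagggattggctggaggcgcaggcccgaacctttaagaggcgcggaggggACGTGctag
The whole windows of *Slco1a4* and *Cldn5* held none of the 5 motifs. That of *Slc2a1* held 1 ACGTG, 36 bases before the start, and 1 GCGTG, 61 bases before it on the other strand. That of *Mfsd2a* held 2 of each hypoxia core and 1 CTTTGA, and that of *Abcb1a* held 2 CTTTGA. The *Abcb1a* window, chr5:8566841-8567140 (plus), lies upstream of the gene's span given below and does not touch it. Hypoxia cores also lay in windows of *Ocln*, *Tjp1*, *Slco1c1* and *Cav1*, and *Ocln* held 1 CCGGAA. *Ocln* and *Cav1* had 2 windows each. Among 32851 promoter windows of the same length, 19.6% held ACGTG, 32.4% GCGTG, 16.0% CTTTGA, 14.9% CCGGAA and 5.202% TGACTCA. The share with either hypoxia core was not computed. These matches describe letters, not binding sites.

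The vascular origin of the signal was checked against markers of the cells the tissue could hold. Of 14 genes of endothelial identity, 13 passed the filter (*Sox18* did not), and each was detected in every group. Their summed level in CPM, which scales each count to its library's size, ran from 310.3 to 372.2 in the control. Genes of pericytes, astrocytes, neurons, fibroblasts, microglia and choroid plexus were detected too, so the libraries are mixed tissue. In such tissue, fewer cells of a type and less RNA per cell cannot be told apart. Depth was low, at 1522668 to 2826735 counts on genes per library (median 1935856). A member had between 0 counts (*Ocln*) and 250 counts (*Slc2a1*) in a library, and *Ocln*, *Cav1*, *Plvap* and *Cldn5* never exceeded 59. Other annotated genes overlap *Tjp1*, *Slc2a1*, *Abcb1a*, *Cav1* and *Plvap*, and *Abcb1a* and *Slco1a4* have close paralogs, so reads shared with these genes leave their counts uncertain. Libraries that stood apart were replicate C of MCAO on day 7, with a fibroblast sum of 5945 CPM against 205.4 to 611.8 in the other 4, and replicate A of the control, with a choroid plexus sum of 898.3 CPM against 188.5 to 264.9 in the others.

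In these data the barrier genes did not move as a block. *Slco1a4*, which encodes the organic anion transporter Oatp1a4 on brain capillaries, was low during the first day after MCAO and fell at 12 h to 0.459 of its sham level. *Cldn5*, the main claudin of the brain endothelium, was high on day 3, where it rose above the control by 1.66 on the log2 scale. *Cav1*, which builds caveolae, had high values on days 3 and 7, short of the threshold at either time. Against sham, edgeR called *Slco1a4* at 12 h and no other member at any time, so that *Cldn5* on day 3 was not called against its shams. Against the control it called *Cldn5* on day 3 and no other member at 24 h, day 3 or day 7. Both calls were lost in some of the fits that left out 1 library, as given below. MCAO at 3 h and 12 h was not tested against the control. A call needed a p under 0.01 in edgeR's quasi-likelihood test, after Benjamini-Hochberg adjustment over 19970 genes, and a log2 fold change larger than 0.58 in size.

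**Figure D1:**
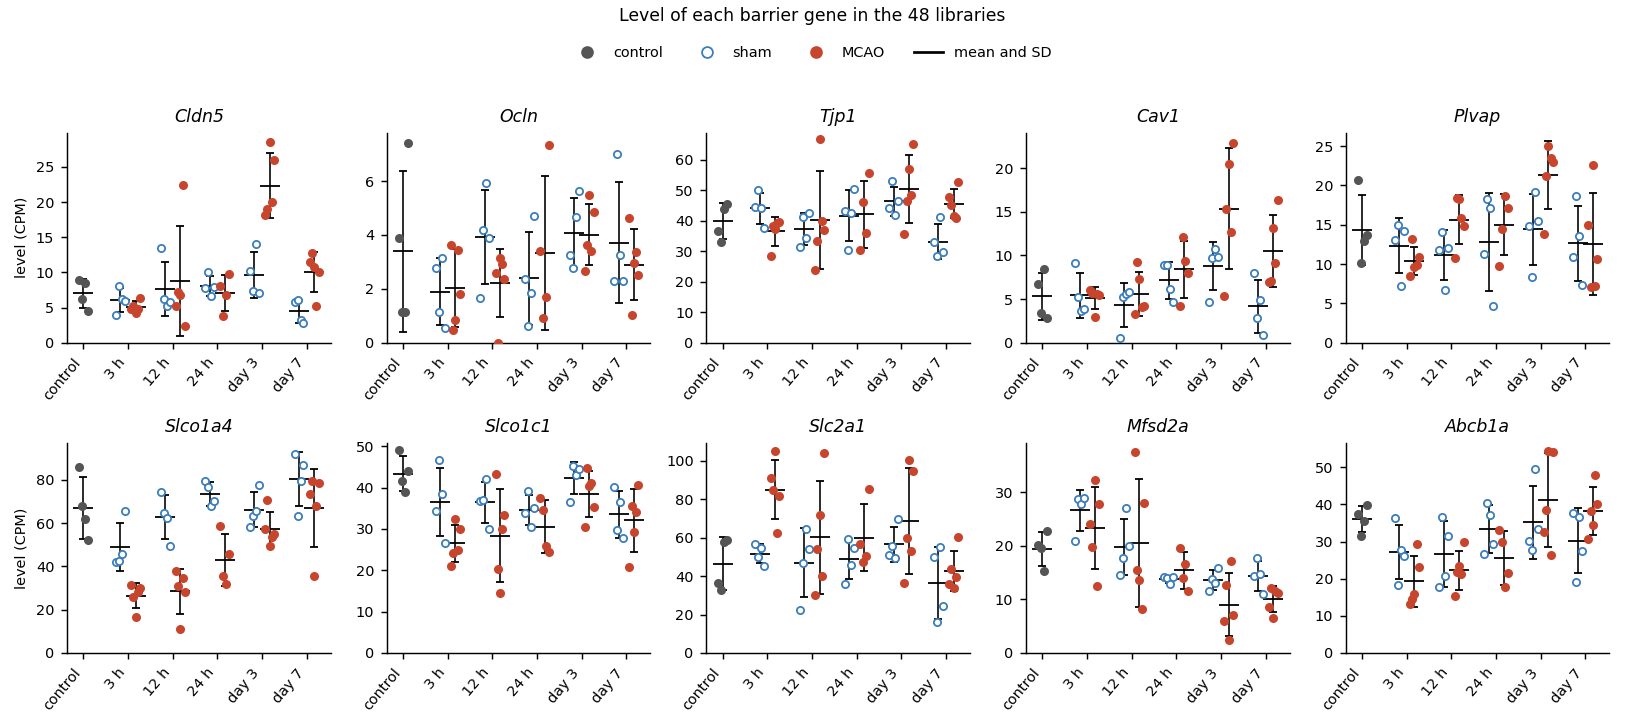
Level of each member in every library, in CPM on a linear axis from 0, by group. Dots are libraries, horizontal bars are means and vertical bars are SDs. The *Slco1a4* levels after MCAO lie below every sham of the same time at 3 h, 12 h and 24 h. The *Cldn5* levels after MCAO on day 3 lie between 18.2 and 28.5, above all shams and controls.

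*Slco1a4* (ENSMUSG00000030237.14, chromosome 6, 141805440 to 141856199 on GRCm38, minus strand) had levels of 85.9, 68.0, 62.1 and 52.0 CPM in the control. At 3 h they were 41.9, 42.6, 45.7 and 65.4 in the shams and 31.3, 25.99, 16.8, 28.0 and 30.1 after MCAO. At 12 h the shams had 74.3, 64.7, 62.1 and 49.5, and the MCAO libraries 37.8, 31.1, 10.95, 34.7 and 28.0. The highest MCAO library was thus below the lowest sham at both times. At 24 h the shams had 79.6, 76.5, 67.7 and 70.3 against 58.6, 35.5, 31.8 and 45.8, again without overlap. On day 3 the shams had 58.4, 63.2, 65.4 and 77.8 and the MCAO libraries 57.1, 70.5, 49.4, 53.7 and 55.1, and on day 7 the values were 92.1, 63.5, 79.6 and 86.7 against 73.3, 79.4, 35.7, 67.7 and 78.3. The groups overlapped at these later times, and the low value on day 7 was that of replicate C, the library with the high fibroblast sum, without which the difference from sham on day 7 was −0.11 on the log2 scale. Across the 11 groups the mean was highest in the day 7 shams (80.5 ± 12.4, SD, n = 4) and lowest in MCAO at 3 h (26.4 ± 5.77, n = 5). Of 10 pairs of neighbours in the order of means, 1 differed by more than the larger of their SDs, MCAO at 24 h above MCAO at 12 h.

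The difference from sham was −0.89 ± 0.23 (log2 fold change ± standard error) at 3 h, −1.12 ± 0.22 at 12 h, −0.78 ± 0.23 at 24 h, −0.21 ± 0.22 on day 3 and −0.26 ± 0.21 on day 7. In edgeR's test the adjusted p-values were 0.0711, 0.00349, 0.187, 0.615 and 0.485, so that 12 h alone was called. Averaged over 3 h, 12 h and 24 h, a contrast chosen after these values had been seen, the difference was −0.93 ± 0.13 with an adjusted p of 3.30e-06 in edgeR, and it ranged from −0.996 to −0.861 as each library was left out. The later mean minus the early mean was 0.69 with an adjusted p of 0.0356 in edgeR, which was not called. The call at 12 h was lost in each of 5 fits that left out 1 library, namely MCAO replicate C or E or sham replicate A, B or C, with adjusted p-values of 0.0128 to 0.0180. It was also lost when the fit held these 9 libraries alone, where the difference was −1.13 and edgeR's adjusted p 0.156. The summed endothelial identity genes at 12 h ran from 277.0 to 393.5 CPM after MCAO and from 300.2 to 404.1 in the shams, with 1 of 13 called (*Itm2a*, lower). The astrocyte sum was lower after MCAO without overlap at 3 h (3475 to 3724 against 4091 to 4386 CPM), 12 h (3366 to 3810 against 3843 to 5307) and 24 h (3341 to 3506 against 3896 to 4614). The pericyte sum was lower without overlap at 3 h (145.6 to 155.0 against 164.0 to 184.2 CPM), and ran from 110.0 to 169.0 against 161.6 to 196.6 at 12 h and from 127.5 to 168.2 against 163.1 to 201.9 at 24 h. Gene by gene, edgeR called 0 of 10 in each of these lists at 3 h, 12 h and 24 h. The median log2 fold changes at these times were −0.05, −0.16 and −0.12 for the astrocyte genes. For the pericyte genes they were −0.06, −0.29 and −0.02. The part of these cells in the *Slco1a4* result was not tested.

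*Slco1c1* encodes Oatp1c1, the carrier of thyroxine, and lies near *Slco1a4* on chromosome 6 (ENSMUSG00000030235.17, 141524368 to 141570177, plus strand). Its levels ran from 38.9 to 49.1 CPM in the control, from 26.7 to 46.6 in the shams at 3 h and from 21.1 to 32.3 in MCAO at 3 h, so that the latter groups overlapped. The difference from sham was −0.46 ± 0.21 at 3 h, −0.36 ± 0.21 at 12 h, −0.18 ± 0.22 at 24 h, −0.14 ± 0.20 on day 3 and −0.06 ± 0.21 on day 7, and none was called. The adjusted p-values in edgeR were 0.431 or more. The control had the highest mean of the 11 groups (43.4 ± 4.32, n = 4) and MCAO at 3 h the lowest (26.5 ± 4.57, n = 5), and no neighbours in the order of means differed by more than the larger of their SDs.

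*Slc2a1* encodes GLUT1, the carrier that brings glucose across the barrier (ENSMUSG00000028645.10, chromosome 4, 119108711 to 119137983, plus strand). At 3 h its levels were 91.0, 85.1, 104.9, 62.5 and 81.5 CPM after MCAO and 56.5, 50.1, 54.7 and 45.2 in the shams. Every MCAO library was above every sham, and this mean (85.0 ± 15.4, n = 5) was the highest of the 11 groups. The log2 fold change was 0.72 ± 0.30, which did not pass the test (adjusted p = 0.479 in edgeR). At the later times the differences lay between 0.23 and 0.33 with overlapping groups. Astrocytes carry this gene as well, and antisense and miRNA genes overlap it, so that its reads cannot be assigned to capillaries alone.

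*Mfsd2a* encodes the carrier of docosahexaenoic acid as lysophosphatidylcholine, which is known to hold down vesicle transport in brain endothelium (ENSMUSG00000028655.11, chromosome 4, 122946850 to 122961188, minus strand). On day 3 its levels were 5.87, 12.7, 2.497, 17.1 and 7.05 CPM after MCAO, 11.6, 13.8, 13.1 and 15.9 in the shams and 20.1, 19.7, 15.2 and 22.8 in the control. The MCAO libraries spread widely, with 1 above and 3 below all shams. The difference was −0.58 ± 0.33 against sham and −1.09 ± 0.33 against the control on day 3, with adjusted p-values of 0.318 and 0.0318 in edgeR. On day 7 all 5 MCAO libraries, at 6.54 to 12.2 CPM, were below the lowest control, with a difference of −0.94 ± 0.33 and an adjusted p of 0.111 in edgeR. The sham means lay between the MCAO and control means on both days. The mean was highest in the 3 h shams (26.6 ± 3.80, n = 4) and lowest in MCAO on day 3 (9.03 ± 5.80, n = 5). In this order 2 pairs of neighbours differed by more than the larger SD, the control above MCAO at 24 h and the day 3 shams above MCAO on day 7.

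*Abcb1a* encodes P-glycoprotein, the efflux pump of the capillary wall (ENSMUSG00000040584.8, chromosome 5, 8660077 to 8748575, plus strand). Its differences from sham were −0.50 ± 0.25, −0.27 ± 0.25 and −0.38 ± 0.27 at 3 h, 12 h and 24 h and 0.23 ± 0.24 and 0.35 ± 0.25 on days 3 and 7. None was called, and the groups overlapped at every time. The lowest mean of the 11 groups was that of MCAO at 3 h (19.3 ± 6.80 CPM, n = 5) and the highest that of MCAO on day 3 (41.2 ± 12.7, n = 5). Its paralog *Abcb1b* is counted apart, and reads that fit both copies equally would have been left out as not unique.

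*Cldn5* (ENSMUSG00000041378.1, chromosome 16, 18776847 to 18778262, plus strand) had levels of 8.93, 6.18, 8.47 and 4.57 CPM in the control. On day 3 the MCAO libraries had 18.2, 19.0, 28.5, 20.02 and 26, and the shams 10.2, 7.39, 14.0 and 7.03. All 5 MCAO libraries were above every sham and every control. On day 7 the MCAO libraries had 11.5, 12.7, 10.7, 5.28 and 10.02 and the shams 5.72, 6.07, 3.27 and 2.74, and 4 of the 5 were above every sham. At 3 h, 12 h and 24 h the groups overlapped, with 1 high library (replicate D, 22.4) among 5 at 12 h. The day 3 mean (22.3 ± 4.61, n = 5) stood apart from the next in the order, MCAO on day 7 (10.1 ± 2.85, n = 5), and the other 9 pairs of neighbours differed by less than the larger of their SDs.

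The log2 fold change of *Cldn5* against the control on day 3 was 1.66 ± 0.37 (adjusted p = 0.00217 in edgeR). Against the shams of day 3 it was 1.205 ± 0.35 with an adjusted p of 0.0194 in edgeR, which was not called, while DESeq2 gave 1.23 with an adjusted p of 0.00515 and called it. On day 7 it was 1.16 ± 0.40 (adjusted p = 0.0552 in edgeR). The mean of days 3 and 7, chosen after the values had been seen, was 1.18 ± 0.26 with an adjusted p of 0.00102 in edgeR, and every library left out in turn kept it between 1.07 and 1.30 and called. The later mean minus the early mean was 1.26 ± 0.35 with an adjusted p of 0.0257 in edgeR, not called. Without control replicate A, the library with the high choroid plexus sum, the value against the control was 1.79 (adjusted p = 0.00579 in edgeR). The call was lost without control replicate B (1.60, adjusted p = 0.0133) or D (1.4999, adjusted p = 0.0194) and under scaling to the spike-ins (1.32, adjusted p = 0.0145). Of the 13 endothelial identity genes 4 rose, and their sum ran from 339.5 to 767.6 CPM after MCAO and from 303.2 to 386.2 in the shams, with no gene of the list at 0 in a group. The part of this shift in the *Cldn5* result was not tested.

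*Ocln* encodes occludin (ENSMUSG00000021638.12, chromosome 13, 100496507 to 100552718, minus strand). With at most 16 counts in a library it was the least precisely measured member, and its difference from sham ran from −0.84 ± 0.59 at 12 h to 0.39 ± 0.66 at 24 h without a call. *Tjp1* encodes ZO-1, which is also made outside the endothelium (ENSMUSG00000030516.14, chromosome 7, 65296165 to 65527781, minus strand). Its difference from sham was between −0.27 ± 0.20 at 3 h and 0.13 ± 0.19 on day 3 at the first 4 times and 0.46 ± 0.20 on day 7 (adjusted p = 0.149 in edgeR). On day 7 its levels were 47.9, 45.3, 41.6, 40.8 and 52.6 CPM after MCAO against 33.2, 28.5, 41.4 and 29.7 in the shams, and the groups overlapped by 1 sham. Its mean differed least of all members over the 11 groups, from 33.2 ± 5.85 to 50.6 ± 11.1, a ratio of 1.52.

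*Cav1* encodes caveolin-1 (ENSMUSG00000007655.16, chromosome 6, 17306335 to 17341452, plus strand). On day 3 its levels were 5.34, 15.4, 20.5, 12.7 and 22.9 CPM after MCAO, 4.71, 9.69, 10.7 and 9.84 in the shams and 6.70, 3.37, 8.47 and 2.85 in the control. On day 7 they were 6.92, 7.12, 13.1, 9.12 and 16.3 after MCAO and 8.01, 2.80, 4.91 and 0.912 in the shams. Above every sham were 4 of 5 MCAO libraries on day 3 and 3 of 5 on day 7, with overlap through replicate A on day 3 and through the highest sham on day 7. The log2 fold change against sham was 0.83 ± 0.41 on day 3 and 1.36 ± 0.47 on day 7, with adjusted p-values of 0.229 and 0.0552 in edgeR. Their mean, chosen after the values had been seen, was 1.09 ± 0.31 (adjusted p = 0.0109 in edgeR), and against the control on day 3 the value was 1.52 ± 0.44 (adjusted p = 0.0256 in edgeR). DESeq2 called both of the latter, and edgeR without MCAO replicate A of day 3 called them too, at 1.198 (adjusted p = 0.00301) and 1.73 (adjusted p = 0.00522). On day 3 replicate A also had the lowest endothelial sum of the 5 MCAO libraries (339.5 against 422.9 to 767.6 CPM). Sums of fibroblast and microglia genes are given beside these values. On day 3 the fibroblast sum ran from 90.8 to 1397 CPM after MCAO against 134.5 to 235.9 in the shams, and replicate D, with *Cav1* above every sham, had the lowest of these sums. The microglia sum on day 3 ran from 625.1 to 2507 against 258.1 to 363.8. Fibroblast genes ran from 205.4 to 5945 CPM after MCAO on day 7 against 108.1 to 179.3 in the shams, with 4 of 9 called higher, and microglia genes from 740.2 to 3231 against 376.5 to 560.7, with 4 of 10 called higher. Without replicate C of day 7 the *Cav1* difference on day 7 was 1.27 (adjusted p = 0.125 in edgeR). The part of these cells in the *Cav1* result was not tested.

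*Plvap* encodes the diaphragm protein of fenestrated and caveolar vessels, which mature brain capillaries carry little of (ENSMUSG00000034845.5, chromosome 8, 71497765 to 71511752, minus strand). It was 0.56 ± 0.31 above sham on day 3, where its mean was the highest of the 11 groups (21.3 ± 4.35 CPM, n = 5), and its differences at the other times lay between −0.23 and 0.50. None was called, and 1 pair of neighbours in the order differed by more than the larger SD, MCAO on day 3 above MCAO at 12 h. For *Ocln*, *Tjp1*, *Slc2a1*, *Abcb1a* and *Cav1* there were 0 such pairs. Fenestrated vessels of the choroid plexus express it too, and the control library with the high choroid plexus sum had the highest control level of *Plvap* (20.6 against 10.1 to 13.7 CPM).

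**Figure D2:**
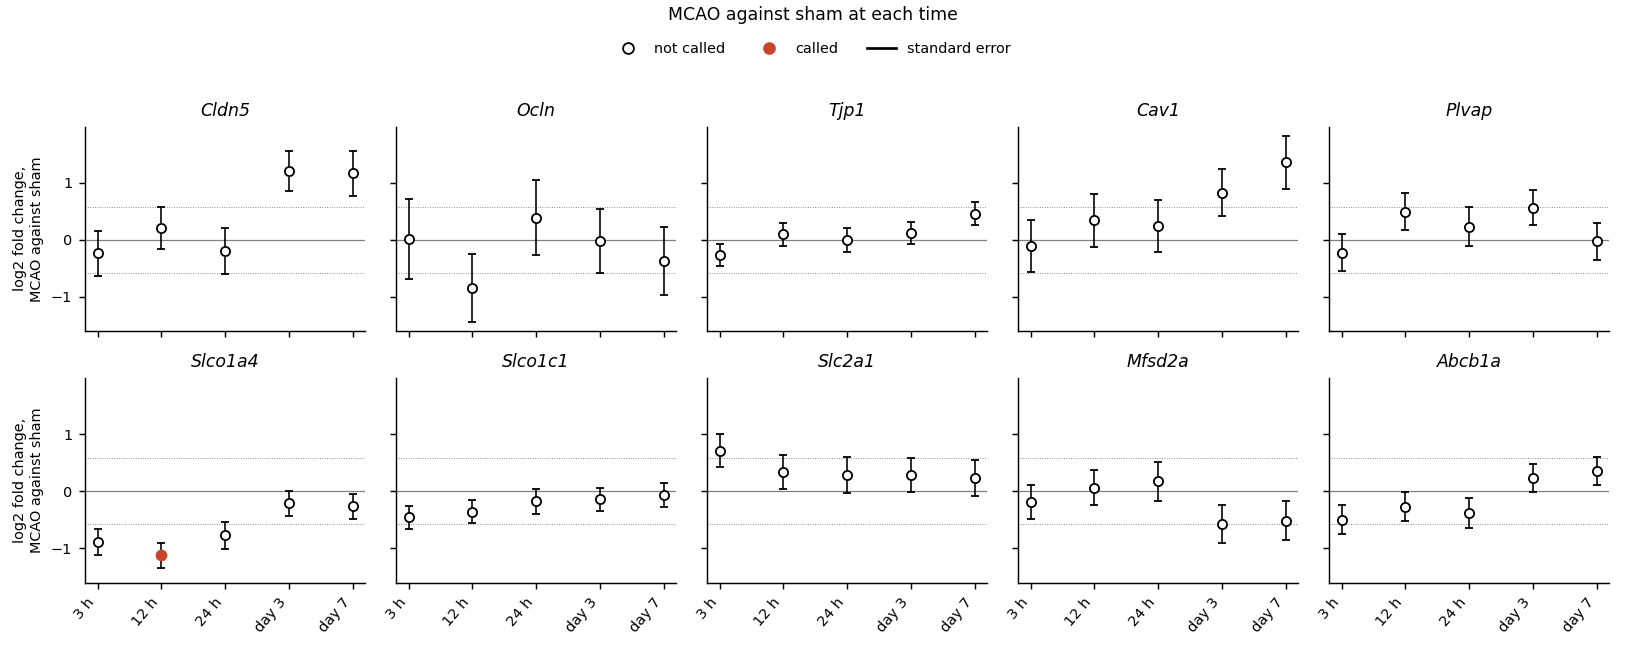
Log2 fold change of MCAO against sham for each member at 5 times, with its standard error. Filled dots passed the test, open dots did not, and dotted lines mark 0.58 in both directions. The single filled dot is *Slco1a4* at 12 h (−1.12), and *Cldn5* lies above 1 on days 3 and 7.

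Counted over the members, edgeR called 0 of 10 against sham at 3 h, 1 at 12 h, 0 at 24 h, 0 on day 3 and 0 on day 7. The share of all genes called was 0.11%, 0.411%, 0.0901%, 4.02% and 3.5% at these times. At an unadjusted p under 0.05 there were 3, 1, 1, 2 and 3 members, beside 8.45%, 14.6%, 8.8%, 21.6% and 23.5% of all genes. DESeq2 called 0, 1, 0, 1 and 0 members. Of all 19970 genes, DESeq2 called 179 at 12 h and 5.17% on day 3. Groups did not overlap for 2 members at 3 h (*Slc2a1* higher, *Slco1a4* lower), 1 at 12 h and 1 at 24 h (*Slco1a4* lower), 1 on day 3 (*Cldn5* higher) and 0 on day 7. Among all genes the groups did not overlap for 3.58%, 3.29%, 5.83%, 7.14% and 10.5%. The median log2 fold change of the members was −0.23, 0.08, 0.09, 0.18 and 0.10, beside medians over all genes of 0, 0.01, 0.02, 0.01 and 0.06. At 3 h, 8 of the 10 members had a negative difference. In simulated counts of 19666 genes for MCAO against sham on day 3, a log2 change of 1 was called in 70% of its genes and one of 1.5 in 91%. Only genes above a set mean level were changed there. The means of *Cldn5*, *Ocln*, *Mfsd2a*, *Cav1* and *Plvap* over the libraries lay below that level, so these shares do not cover them.

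Against the control, edgeR called 0 of 10 members at 24 h, 1 on day 3 (*Cldn5*) and 0 on day 7, beside 0.28%, 3.1% and 1.5% of all genes. DESeq2 called 0, 2 (*Cldn5* and *Cav1*) and 0, with 4.31% of all genes on day 3. At an unadjusted p under 0.05 there were 2, 3 and 3 members, beside 11%, 19.8% and 14.9% of all genes. The groups did not overlap for 1 member at 24 h (*Slco1c1* lower, beside 7.83% of all genes), 1 on day 3 (*Cldn5* higher, beside 7.24%) and 1 on day 7 (*Mfsd2a* lower, beside 7.41%). These comparisons share their MCAO libraries with those against sham.

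EdgeR called 0 members in sham against control at each of the 5 times, with 0 members at an unadjusted p under 0.05 and 0 called by DESeq2, beside 0%, 0.0351%, 0.01%, 0% and 0% of all genes at 3 h, 12 h, 24 h, day 3 and day 7. The groups did not overlap for 1 member at 24 h (*Mfsd2a*, at 12.8 to 14.3 CPM in the shams and 15.2 to 22.8 in the control, a difference of −0.50 ± 0.34) and for 0 members at the other times. Among all genes they did not overlap for 3%, 2.9%, 4.27%, 3.3% and 5.02%. The member differences lay between −0.76 (*Ocln* at 3 h) and 0.69 (*Cav1* on day 3). A test of whether the MCAO effect changed from one time to the next called 0 members in each of the 4 steps by edgeR and by DESeq2. At an unadjusted p under 0.05 in edgeR there were 0 members, except 1 from 24 h to day 3 (*Cldn5*, 1.41 ± 0.53), beside 8.82% of all genes. The shares of all genes called were 0.01%, 0.01%, 0.01% and 0%. In the contrasts chosen after the values had been seen, the early mean called 1 member (*Slco1a4*, beside 1.49% of all genes) and the late mean 1 (*Cldn5*, beside 6.94%). The late minus the early mean called 0 (beside 1.27%). In this last contrast 4 members had an unadjusted p under 0.05 in edgeR, beside 17.8% of all genes. DESeq2 called 1 member in it (*Cldn5*), beside 505 of 19970 genes.

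Because the endothelial genes as a list were higher on day 3, each member was also read relative to them, as its log2(CPM + 1) minus the mean of the 13 endothelial identity genes in the same library. That mean was 0.88 above sham on day 3, without overlap, and between −0.19 and 0.05 at 3 h, 12 h and 24 h and 0.04 on day 7. No test was made on these values.

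**Figure D3:**
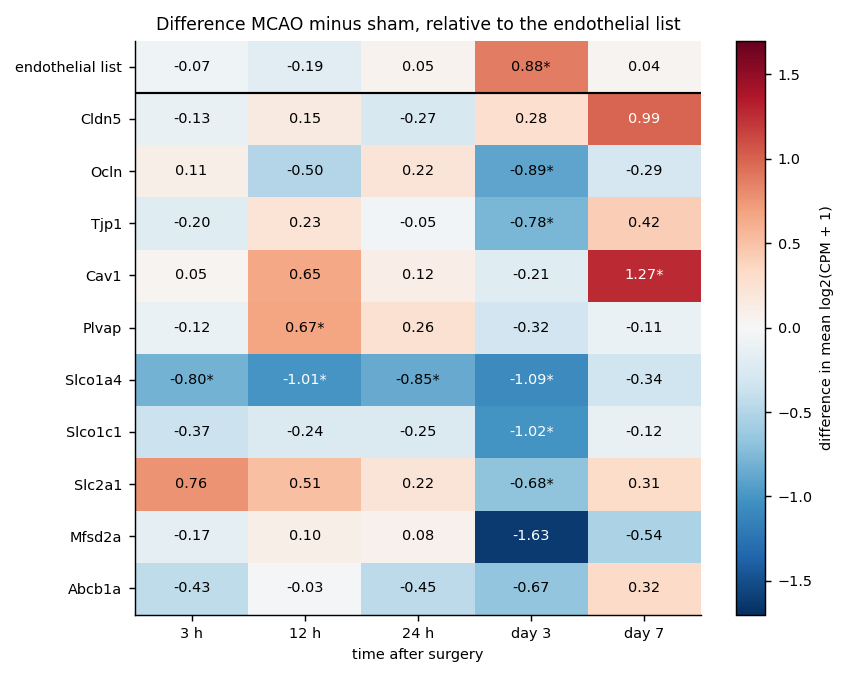
Difference of MCAO minus sham in log2(CPM + 1) relative to the mean of the endothelial identity genes, for each member (rows below the line) at each time, with the difference in that mean itself in the top row. An asterisk marks groups that do not overlap. The *Slco1a4* row is negative at all 5 times, and the day 3 column is negative for 9 of the 10 members.

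Relative to the endothelial genes, *Slco1a4* was lower after MCAO without overlap at 3 h, 12 h and 24 h (−0.80, −1.01 and −0.85). Among all genes, 0.29%, 0.346% and 2.01% were lower without overlap in the same reading. *Slc2a1* was 0.76 higher at 3 h, with overlap. *Plvap* was 0.67 higher at 12 h without overlap, beside 4.36% of all genes. On day 3, *Slco1a4* (−1.09), *Slco1c1* (−1.02), *Ocln* (−0.89), *Tjp1* (−0.78) and *Slc2a1* (−0.68) were lower without overlap. That is 5 of 10 members, but 26.1% of all genes were lower in this reading on day 3, where the endothelial mean itself was higher. *Mfsd2a* had the lowest value (−1.63), with overlap, and *Cldn5* was the one member with a positive value (0.28, with overlap). On day 7, when the endothelial mean was close to sham, *Cav1* was 1.27 higher without overlap, beside 4.15% of all genes, and *Cldn5* 0.99 higher with overlap.

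The members stand in a wider set of barrier genes, and these were read from lists written for the purpose. Every list count below stands beside these shares of all genes against sham. EdgeR called 0.11%, 0.411%, 0.0901%, 4.02% and 3.5% at the 5 times, and 1.49% in the early mean. At an unadjusted p under 0.05 in edgeR the shares were 8.45%, 14.6%, 8.8%, 21.6% and 23.5%, and several list counts lay near them. Of 14 other junction genes, 6 rose on day 3, among them *F11r* (2.26 ± 0.37), *Pecam1* (2.02 ± 0.35), *Cdh5* (1.99 ± 0.44) and *Lsr* (1.44 ± 0.31), and *Esam* rose too. At 3 h, 12 h, 24 h and day 7 edgeR and DESeq2 each called 0, with 0, 1, 4 and 4 genes at an unadjusted p under 0.05. *F11r* and *Lsr* encode adhesion proteins of tight junctions, and *Pecam1* and *Cdh5* (VE-cadherin) join endothelial cells. *F11r* ran from 16.0 to 50.4 CPM after MCAO and from 3.28 to 7.62 in the shams, without overlap, while for *Pecam1* (27.8 to 201.3 against 21.0 to 30.8) the groups overlapped. The medians of the 14 genes were 0.16, 0.33, 0.32, 0.55 and 0.46 at the 5 times. Over all genes they were 0, 0.01, 0.02, 0.01 and 0.06. *F11r* and *Pecam1* are made by platelets and white blood cells as well, and the microglia and macrophage sum on day 3 ran from 625.1 to 2507 CPM against 258.1 to 363.8. The part of such cells was not tested.

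Of 16 other barrier transporters, 2 rose on day 3, namely *Slco2b1* (1.63 ± 0.25), another organic anion carrier, and *Abcc4* (1.15 ± 0.30), an efflux pump. On day 7, 1 rose (*Slc6a6*, the taurine carrier), and edgeR and DESeq2 each called 0 at 3 h, 12 h and 24 h, with 3, 2 and 2 genes at an unadjusted p under 0.05. *Slco2b1* ran from 23.5 to 78.9 CPM after MCAO on day 3 and from 12.2 to 20.3 in the shams. The medians of the list were −0.10, −0.11, 0.13, 0.28 and 0.34 at the 5 times. In the early mean, *Abcg2*, which encodes the efflux pump Bcrp, fell and *Slc16a1*, the lactate carrier MCT1, rose.

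Caveola genes other than *Cav1* numbered 6, of which *Cav2* (0.92 ± 0.23) and *Cavin3* (0.87 ± 0.21) rose on day 3. At 3 h, 12 h, 24 h and day 7 edgeR and DESeq2 each called 0, with 1, 3, 1 and 2 genes at an unadjusted p under 0.05. Their medians were 0.26, 0.76, 0.39, 0.90 and 0.14 at the 5 times. *Cav2*, the partner of caveolin-1, ran from 27.3 to 37.9 CPM against 9.69 to 22.0 in the shams, without overlap. Of 17 genes of Wnt signaling and barrier maintenance, edgeR and DESeq2 each called 0 at all 5 times. At an unadjusted p under 0.05 there were 1, 2, 2, 1 and 4 genes. The medians of this list were −0.07, 0.16, −0.28, 0.22 and 0.67 at the 5 times, beside 0.06 over all genes on day 7. *Sox17*, a transcription factor of arterial endothelium, fell in the early mean.

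Of 11 genes of activated and sprouting endothelium, 3 rose on day 3. *Icam1* (3.94 ± 0.77) and *Lrg1* (3.18 ± 0.57) were 2 of them. The third was *Selp* (P-selectin), which had no count in any day 3 sham and 0.534 to 43.9 CPM in the MCAO libraries, so that no fold is given. At 3 h, 12 h, 24 h and day 7 edgeR called 0 of the 11, with 2, 6, 4 and 3 at an unadjusted p under 0.05. DESeq2 called 0, 0, 0 and 1. The medians at these times were 0.23, 1.31, 1.34 and 0.72, beside 1.60 on day 3. At each time 2 or 3 of the 11 were at 0 throughout 1 group. In the early mean *Selp* and *Angpt2* were called higher. The 4 called endothelial identity genes of day 3 were *Vwf* (2.28 ± 0.37), *Robo4* (1.95 ± 0.50), *Eng* (1.705 ± 0.40) and *Egfl7* (1.02 ± 0.25), and the median of the 13 was 1.02. DESeq2 called 7 of the 13. *Vwf* overlapped between the groups through 1 MCAO library at 9.61 CPM, while *Eng* did not (14.4 to 38.5 against 4.22 to 10.5).

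**Figure D4:**
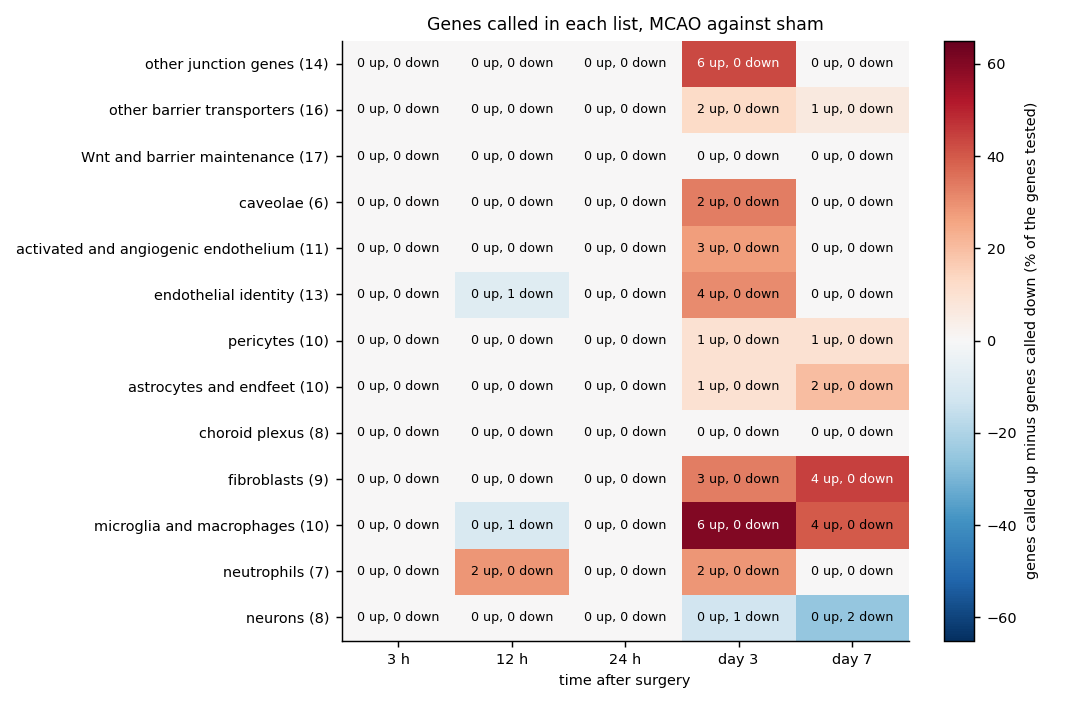
Number of genes called higher (up) and lower (down) in MCAO against sham for each list and time, with the number of genes tested in brackets. Colour gives the calls up minus the calls down as a percentage of the genes tested. On day 3, 6 of the other junction genes and 4 of the endothelial identity genes were called higher, while the Wnt list has 0 calls at every time.

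Genes of the cells around the capillaries were called in the same libraries. Among pericyte genes *Notch3* rose on day 3 and *Pdgfrb* on day 7 (1.6999 ± 0.36), 1 of 10 at each time. Of 10 astrocyte and endfoot genes 1 rose on day 3, *Aqp4*, the water channel of endfeet, while the median of the list was −0.06 and its sum ran from 2935 to 4121 CPM after MCAO against 4096 to 4410 in the shams. On day 7, 2 of the 10 rose, *Aqp4* (1.47 ± 0.22) and the gap junction gene *Gja1* (1.43 ± 0.24). Of 10 microglia and macrophage genes 6 rose on day 3 and 4 on day 7, and *P2ry12* fell at 12 h. *C1qa*, of complement, rose by 3.34 ± 0.42 on day 3. Fibroblast genes called higher numbered 3 of 9 on day 3 and 4 of 9 on day 7, the latter led by *Col3a1* (6.74 ± 1.07), with 13.2 to 1266 CPM after MCAO and 1.37 to 5.45 in the shams. Of 7 neutrophil genes, *S100a8* and *S100a9* were called higher at 12 h and on day 3, with 0 to 1.38 CPM of *S100a8* in the day 3 shams. Among 8 neuron genes *Snap25* fell on day 3 and *Rbfox3* (−0.87 ± 0.16) fell on day 7. Of 8 choroid plexus genes tested edgeR called 0 at each of the 5 times, with 1, 1, 1, 0 and 1 at an unadjusted p under 0.05, and DESeq2 called 1 at 24 h.

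Over the 48 libraries, which share these conditions, the genes whose log2 levels followed each member most closely were sought among 11739 genes with a mean of at least 5 CPM. *Slco1a4* was followed most closely by *Slc22a8* (Pearson's r = 0.785), which encodes the organic anion transporter Oat3, then *Adprh* (0.723) and *Itm2a* (0.716). *Slc2a1* was followed by *Tiparp* (0.756), *Ptgs2* (0.755) and *Rgs16* (0.749). *Cav1* was followed by *Lgmn* (0.811), *Cmtm6* (0.791) and *Zcchc24* (0.782), and *Abcb1a* by *Ptprb* (0.682), *Sox17* (0.672) and *Sox21* (0.665). *Plvap* was followed by *Esam* (0.695), *Cldn5* by *Add3* (0.725), *Mfsd2a* by *Trak1* (0.735), *Tjp1* by *Pabpc1* (0.726), *Slco1c1* by *Ostm1* (0.626) and *Ocln* by *Pot1a* (0.522). Among the members themselves the closest pairs were *Tjp1* with *Cav1* (0.572), *Slco1a4* with *Slco1c1* (0.570) and *Abcb1a* with *Slco1a4* (0.506). These are descriptions over libraries of different conditions, with no test.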

How the data were processed

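Bulk 3′ end RNA-seq (QuantSeq) libraries with ERCC spike-ins were read single-end from mouse brain tissue. The authors trimmed the reads, removed rRNA and mitochondrial reads, aligned with STAR 2.5.2b to GRCm38 and counted with HTSeq over Gencode vM8 genes. The strand setting of the counting is not given in the sources used here. The deposited values used are raw counts per gene and library. A deposited variance-stabilized matrix on the log2 scale was not used. Gene symbols matched 46488 of 46983 identifiers. Spike-ins took 3.71% to 5.97% of the assigned counts, and reads with no feature, ambiguous or not unique (51.0% to 60.2% of all) stayed out.

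The 19970 genes whose counts summed to over 10 entered edgeR 4.0.16 (R 4.3.3, limma 3.58.1), with TMM scaling, a quasi-likelihood test, 1 fit over 11 groups and Benjamini-Hochberg adjustment. Calls needed an adjusted p under 0.01 and a log2 fold change beyond 0.58. Levels are CPM, and relative levels used a pseudocount of 1. Alternatives were DESeq2 1.42.0, its size factors, filterByExpr, no filter, the compared groups alone, spike-in scaling, a replicate block, a pseudocount of 0.1 and each of 48 libraries left out. The test was tested on simulated data. Given with values were all 10 members, for each list up to 4 called genes with the largest change at the time with most calls, and for each member the genes most like it over the libraries. Other called genes are named without values, and a few are not reported here. The members and lists were chosen with earlier results of these data known. The deviations of same-lettered MCAO and sham libraries from their group means had correlations from −0.26 to 0.15. Pairs with different letters were not compared, so these values cannot tell whether the letters pair samples. The main fit used no pairing.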

Additional observations from a re-analysis of the deposited data

Results flagged for a closer look

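In 110 sets of 1 gene and 1 group, 9 held a library far from the rest of its group, and chance flags about 1 in 20 groups. *Cldn5* was 13.4 CPM in replicate A of the 12 h shams (the others 5.18 to 6.26) and 22.4 in replicate D of MCAO at 12 h (2.38 to 7.28). *Ocln* was at 0 in replicate B of MCAO at 12 h (2.38 to 3.13). *Tjp1* was 28.3 in replicate A of MCAO at 3 h (37.3 to 39.6), and *Mfsd2a* was 21.0 in replicate A of the 3 h shams (27.8 to 28.9). *Slco1a4* was 65.4 in replicate D of the 3 h shams (41.9 to 45.7) and 35.7 in replicate C of MCAO on day 7 (67.7 to 79.4). *Cav1* was 2.94 in replicate C of MCAO at 3 h (5.47 to 6.03) and 0.559 in replicate A of the 12 h shams (5.21 to 5.84).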

How the results depend on the processing

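Each log2 difference of a member was refitted under the alternatives. With 1 library left out, 1338 values kept their direction and their side of the threshold, 58 changed direction, 7 gained a call and 7 lost one. Between the lowest and the highest value with 1 library left out, *Ocln* ran from −0.28 to 0.33 at 3 h, −0.26 to 0.96 at 24 h, −0.16 to 0.17 on day 3, −0.59 to 0.15 on day 7, −0.043 to 0.95 against the control on day 3, −0.36 to 0.043 in the early mean, −0.31 to 0.064 in the late mean and −0.24 to 0.21 in the late minus the early mean. *Cldn5* ran from −0.45 to 0.58 at 12 h, −0.37 to 0.0093 at 24 h and −0.30 to 0.047 in the early mean. *Tjp1* ran from −0.17 to 0.24 at 12 h and −0.15 to 0.12 at 24 h, *Mfsd2a* from −0.31 to 0.26 at 12 h and −0.10 to 0.084 in the early mean, and *Cav1* from −0.27 to 0.30 at 3 h. *Plvap* ran from −0.056 to 0.45 at 24 h, −0.35 to 0.24 on day 7 and −0.063 to 0.23 in the late minus the early mean, *Slc2a1* from −0.0093 to 0.51 on day 7 and *Slco1c1* from −0.16 to 0.059 on day 7. None of these values was called. Members called ran from 0 to 1 at 12 h, 0 to 2 on day 3 against the control, 1 to 2 in the late mean and 0 to 1 in the late minus the early mean. On day 3 against the control, leaving out MCAO replicate A added *Cav1*, leaving out D added *Mfsd2a* (−1.45, adjusted p = 0.00475 in edgeR), and leaving out control B or D gave 0. The late mean gained *Cav1* without MCAO day 3 A, MCAO day 7 A or B, or sham day 7 A. The late minus the early mean called *Cldn5* without MCAO 12 h D (1.48).

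Scaling to the spike-ins moved the median of all genes on day 3 from 0.01 to −0.22, and gave *Ocln* −0.094 at 3 h, *Tjp1* −0.045 and *Mfsd2a* −0.055 at 12 h, *Tjp1* −0.14 and *Abcb1a* −0.038 on day 3, *Slco1c1* 0.015 and *Plvap* 0.028 on day 7, *Ocln* −0.10 and *Abcb1a* −0.15 against the control on day 3, and *Mfsd2a* −0.010 in the early mean. It called *Mfsd2a* against the control on day 3 (−1.41) in place of *Cldn5* (1.32). *Tjp1* at 24 h was −0.0013 with DESeq2's size factors, −0.0071 with DESeq2, −0.0046 with filterByExpr and −0.0061 with the compared groups alone, and *Ocln* on day 3 was 0.0030 with DESeq2's size factors and 0.0034 with DESeq2. With the compared groups alone 0 members were called at 12 h. DESeq2 called 1 member on day 3, 2 against the control on day 3, 2 in the late mean and 1 in the late minus the early mean. The late mean also called 2 with DESeq2's size factors, filterByExpr or no filter. The causes were not tested.

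The replicate block left every count of called members as it was. With the block *Ocln* was −0.076 at 3 h and 0.019 on day 3, *Mfsd2a* −0.0074 at 12 h and −0.023 in the early mean, and *Tjp1* −0.0032 at 24 h. Same-lettered libraries had correlations over 0.1 in 5 of 20 pairs. Depth limits *Ocln* most, with at most 16 counts in a library.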
